A study of Oryza sativa with 6 samples.

Results

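In leaves of rice seedlings given the protein ShSDH1, 82 genes that lay under 1 FPKM on average in control leaves reached 1 FPKM or more. FPKM scales the sequenced fragments of a gene to its length and to the depth of the library, so levels can be set side by side between genes. A gene was chosen when its mean was under 1 FPKM in Control and at least 1 FPKM with ShSDH1, when the lowest ShSDH1 library lay above the highest Control library, and when (ShSDH1 mean + 0.1)/(Control mean + 0.1) was at least 2. That quotient is called the offset ratio here. Genes of 3 stretches of identifiers were left out, and 82 of the 29011 genes in the deposited table met the rule. The choice used the values of all 6 libraries, so the difference between the treatments is described below and is not tested as a finding.

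The study gave 2-week-old seedlings a purified protein for 6 h and sequenced total RNA of the leaves. ShSDH1, named in the series title as an oxidoreductase of the endophyte OsiSh-2, a microbe that lives inside rice tissue, was given to the seedlings of 3 libraries. For the other 3 libraries, called Control, the seedlings received pCold TF protein, made from an expression vector that fuses proteins to the chaperone trigger factor to keep them soluble. The labels give neither the rice variety, the dose and route of the proteins, nor the plants or pools behind each library. All p-values therefore rest on differences among libraries whose biological independence is unknown.

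Plants recognise microbial proteins, and fragments of their own damaged walls, through receptors at the cell surface. Recognition is known to start a rapid change of transcription, in which some defence genes that are hardly transcribed at rest are induced within hours. The deposited table names genes by OsR498 identifiers alone, and 0 of these matched the 39387 rice genes of the name table used here. Products of the 82 genes are therefore not given, no gene list or leaf marker could be looked up, and no sequence is shown. The leading pair is given by identifier, and the others by rank, ordered by the difference of mean log2(FPKM + 1) between the treatments, called the log2 fold change.

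Whole fragment numbers could be read from the steps of the FPKM values, and the libraries held 33654750 to 41776866 fragments. At the median length of the 82 genes, 1302 bases, 1 FPKM stood for 43.8 fragments in the shallowest library and 54.4 in the deepest. A value of 1 FPKM then carried a counting error of 15.1% in the shallowest library. Such errors leave out everything but the counting, and they may be too small, because copies of 1 molecule cannot be recognised.

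The 82 genes were low in Control and mostly stayed low with ShSDH1. In whole leaves, more cells with a transcript and more transcript per cell cannot be told apart. Their Control means ran from 0 to 0.945 FPKM with a median of 0.440 FPKM, and their ShSDH1 means from 1.00 to 21.2 FPKM with a median of 1.72 FPKM. With ShSDH1, 54 genes had means of 1 to under 2 FPKM, 22 of 2 to under 5 FPKM, 3 of 5 to under 10 FPKM and 3 of 10 FPKM or more. The offset ratio was under 4 in 52 genes, from 4 to under 10 in 11 genes and at least 10 in 19 genes. Library medians over the 82 genes were 0.454, 0.386 and 0.453 FPKM in Control replicates 1, 2 and 3. In ShSDH1 replicates 1, 2 and 3 they were 1.73, 1.49 and 1.60 FPKM. Between 57 and 73 of the genes reached 1 FPKM in each ShSDH1 library, against 2 to 8 in each Control library. The plot of group means places the 82 genes above the diagonal, most of them close to the corner where both means are 1 FPKM.

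**Figure D1:**
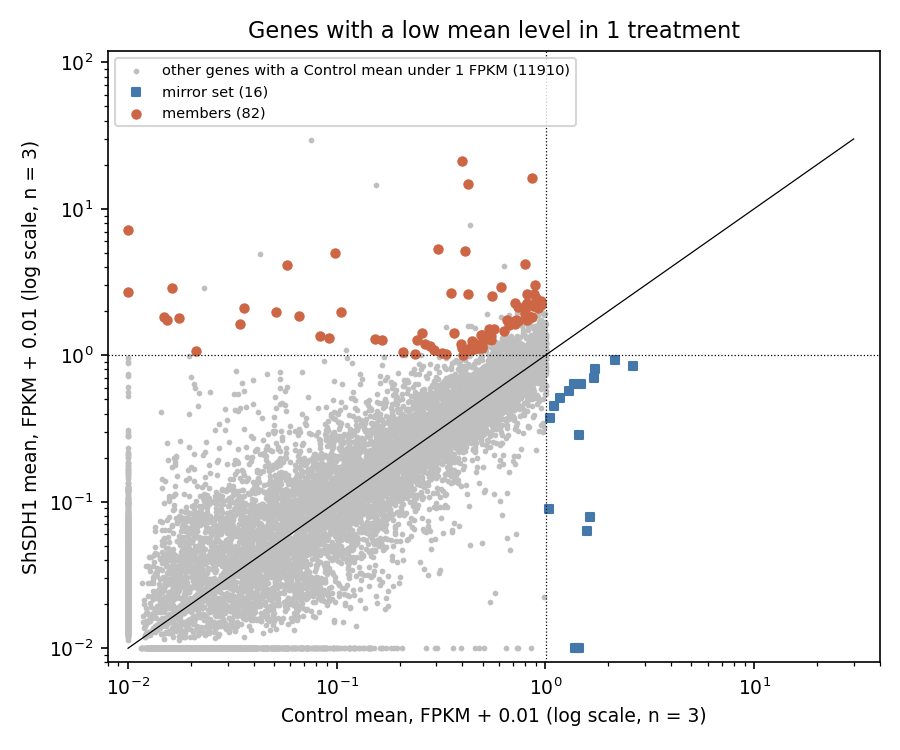
Mean FPKM + 0.01 with ShSDH1 (vertical axis, log scale) against Control (horizontal axis, log scale), each over 3 libraries, for all 11992 genes with a Control mean under 1 FPKM and for 16 genes that meet the same limits in the opposite direction. Dotted lines mark 1 FPKM and the solid line equal means; the 82 chosen genes reach from 1.00 to 21.2 FPKM with ShSDH1.

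Near-silence in Control held for a minority of these genes. A Control mean at or under 0.1 FPKM was found in 16 of the 82, and 66 lay above it. The 2 genes at 0 FPKM had 0 Control fragments, and the 14 genes above 0 and up to 0.1 FPKM had 1 to 26 fragments over the 3 Control libraries. In the 33 genes from 0.1 to 0.5 FPKM the Control fragments numbered 15 to 205, and in the 33 genes above 0.5 FPKM they numbered 43 to 348. At least 10 fragments were present in every Control library in 48 genes. Transcripts of these 48 genes were thus present at a low but measurable level in Control leaves, and near-silent is used below only for the 16 genes at or under 0.1 FPKM.

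By log2 fold change on log2(FPKM + 1), a scale that ranks genes with very low values lower than their ratio would, the 3 leading genes were measurable in Control, and their ShSDH1 means of 14.8 to 21.2 FPKM lay above the median of 8.52 FPKM over all tested genes. By offset ratio the gene of rank 3, at 17.0, would stand behind several genes that were close to 0 in Control. OsR498G1220846000.01 had 0.497, 0.615 and 0.0526 FPKM in Control replicates 1, 2 and 3 and 21.5, 10.6 and 31.3 FPKM in ShSDH1 replicates 1, 2 and 3. OsR498G1119320500.01 had 0.760, 0.389 and 0.0997 FPKM in the Control libraries and 15.9, 9.12 and 19.5 FPKM in the ShSDH1 libraries, in the same order. In the gene of rank 3 the Control values were 1.32, 0.852 and 0.395 FPKM and the ShSDH1 values 17.7, 8.15 and 22.6 FPKM. Control replicate 3 was the lowest Control library in all 3 genes, ShSDH1 replicate 3 the highest ShSDH1 library and ShSDH1 replicate 2 the lowest. The rule required every ShSDH1 library to lie above every Control library. In ShSDH1 replicate 2 each gene stood at least 6.16 times above its highest Control library.

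For OsR498G1220846000.01 the Control mean was 0.388 ± 0.297 FPKM and the ShSDH1 mean 21.2 ± 10.3 FPKM (SD, n = 3 each), a ratio of means of 54.5. Its values rest on 18, 21 and 2 fragments in the Control libraries and on 709, 411 and 974 in the ShSDH1 libraries. For OsR498G1119320500.01 the Control mean was 0.416 ± 0.331 FPKM and the ShSDH1 mean 14.8 ± 5.27 FPKM (SD, n = 3 each), a ratio of 35.6. On the log2(FPKM + 1) scale this gene changed by 3.45 ± 0.26 (SE; limma adjusted p of 0.000913), and by 5.45 with a pseudocount of 0.01. OsR498G1220846000.01 changed by 3.90 ± 0.33 (SE, limma adjusted p of 0.00127), and by 6.16 with that pseudocount. Both genes were chosen on this contrast, so nothing is read from these adjusted p-values. The 3 leading genes held 24.8%, 18.2% and 30.5% of the summed FPKM of the 82 genes in ShSDH1 replicates 1, 2 and 3. In Control replicates 1, 2 and 3 they held 7.0%, 5.3% and 1.4%.

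**Figure D2:**
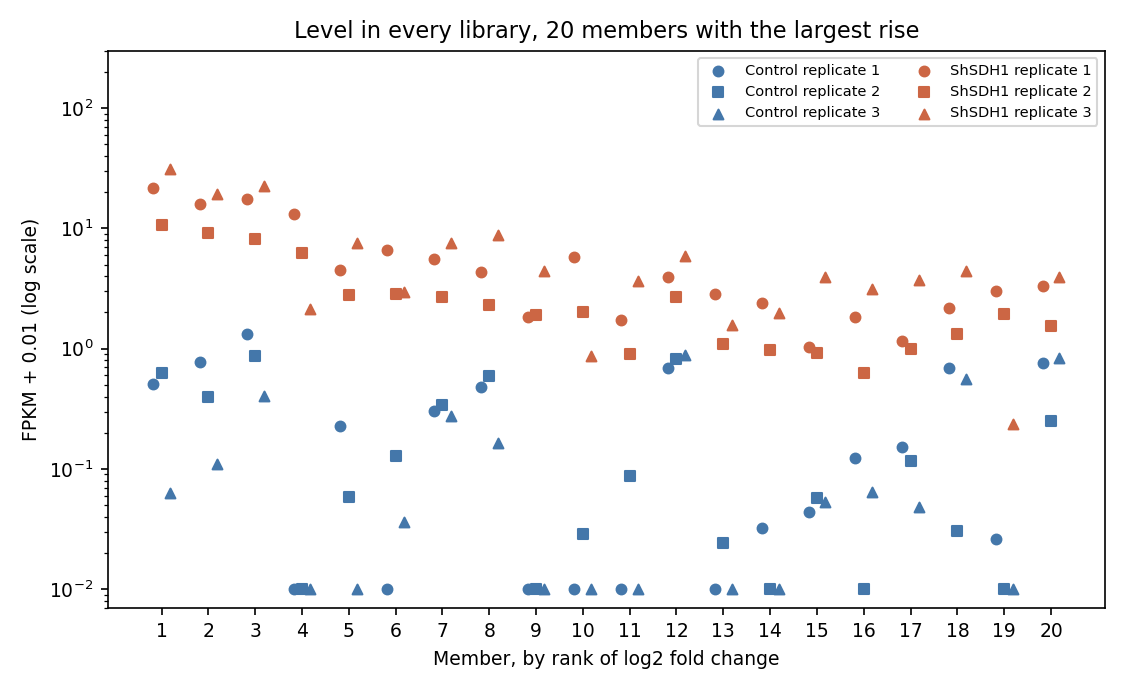
FPKM + 0.01 (log scale) in each of the 6 libraries for the 20 genes with the largest log2 fold change, ordered by rank; blue marks are Control and orange marks ShSDH1 libraries, with 1 shape per replicate number. Marks on the 0.01 line are values of 0, as in all Control libraries of the genes of rank 4 and 9, and ShSDH1 replicate 3 drops to 0.226 FPKM in the gene of rank 19.

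No fragment was found in any Control library in the genes of rank 4 and 9. The gene of rank 4 was listed at 0 FPKM in Control and had 13.3, 6.22 and 2.13 FPKM in ShSDH1 replicates 1, 2 and 3, on 357, 196 and 54 fragments. Likewise listed at 0 FPKM in Control, the gene of rank 9 had 1.84, 1.91 and 4.37 FPKM with ShSDH1, on 32, 39 and 72 fragments. No ratio of means is given for either gene, because the Control value is 0, and the size of their offset ratios, by which they count among the 19 genes at 10 or more, is set by the offset of 0.1 FPKM. Their ShSDH1 libraries ran in opposite orders, with replicate 1 the highest in the first gene and the lowest in the second.

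A further 6 genes had 1 to 3 fragments over all Control libraries. The gene of rank 10 had a single Control fragment, in replicate 2, and 5.73, 2.00 and 0.864 FPKM in ShSDH1 replicates 1, 2 and 3. Scaled to depth, its pooled fragments gave a ratio of 484, with an exact 95% confidence interval from 86.4 to 19148.8 for counting error. That interval leaves out the spread between libraries and the choice of the gene on these same values. Also with 1 Control fragment, the gene of rank 19 went to 3.01, 1.94 and 0.226 FPKM with ShSDH1, so that replicate 3 stood on only 12 fragments. In the gene of rank 22, with 3 Control fragments, the ShSDH1 values were 3.20, 1.45 and 0.265 FPKM. The level in ShSDH1 leaves thus differed up to 13.3 times between replicate libraries in these genes. That every ShSDH1 library lay above every Control library was required by the rule. ShSDH1 replicate 1 was the highest library in all 6 genes.

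The next genes by rank were low but present in most Control libraries. In the gene of rank 5 the Control values were 0.216, 0.0489 and 0 FPKM and the ShSDH1 values 4.50, 2.80 and 7.56 FPKM. At rank 6 a gene went from 0, 0.117 and 0.0263 FPKM to 6.59, 2.85 and 2.93 FPKM. In the gene of rank 7 Control was even, at 0.294, 0.329 and 0.263 FPKM, and ShSDH1 gave 5.53, 2.70 and 7.58 FPKM. All 3 genes had at least 2.70 FPKM in their lowest ShSDH1 library, while their highest Control library was at 0.329 FPKM or less.

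Rank 8 was held by a gene that rose from 0.470, 0.584 and 0.155 FPKM in Control to 4.31, 2.32 and 8.81 FPKM with ShSDH1. It stood 2 places before the gene of rank 16 in the order of listed identifiers. That second gene went from 0.114, 0 and 0.0540 FPKM to 1.81, 0.612 and 3.14 FPKM. In both genes ShSDH1 replicate 3 was the highest library and ShSDH1 replicate 2 the lowest.

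In the 52 genes with an offset ratio under 4 the change was modest and the level stayed low. Control means ran from 0.199 to 0.945 FPKM with a median of 0.540 FPKM, and ShSDH1 means from 1.00 to 2.99 FPKM with a median of 1.46 FPKM. Among them the gene of rank 28 had 0.662, 0.796 and 0.958 FPKM in Control and 2.08, 2.81 and 2.90 FPKM with ShSDH1. At the other end the groups lay close together. Over the 80 genes with a Control value above 0, the lowest ShSDH1 library exceeded the highest Control library by a median of 1.75 times. It did so by less than 1.2 times in 6 genes and by at least 4 times in 17 genes. The narrowest gap, 1.06 times, was in the gene of rank 21, whose offset ratio of 6.20 places it outside the 52. It had 0.405, 0.304 and 0.323 FPKM in Control and 0.430, 4.44 and 3.08 FPKM with ShSDH1. Its ShSDH1 replicate 1 sat at the Control level while the other ShSDH1 libraries were higher.

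**Figure D3:**
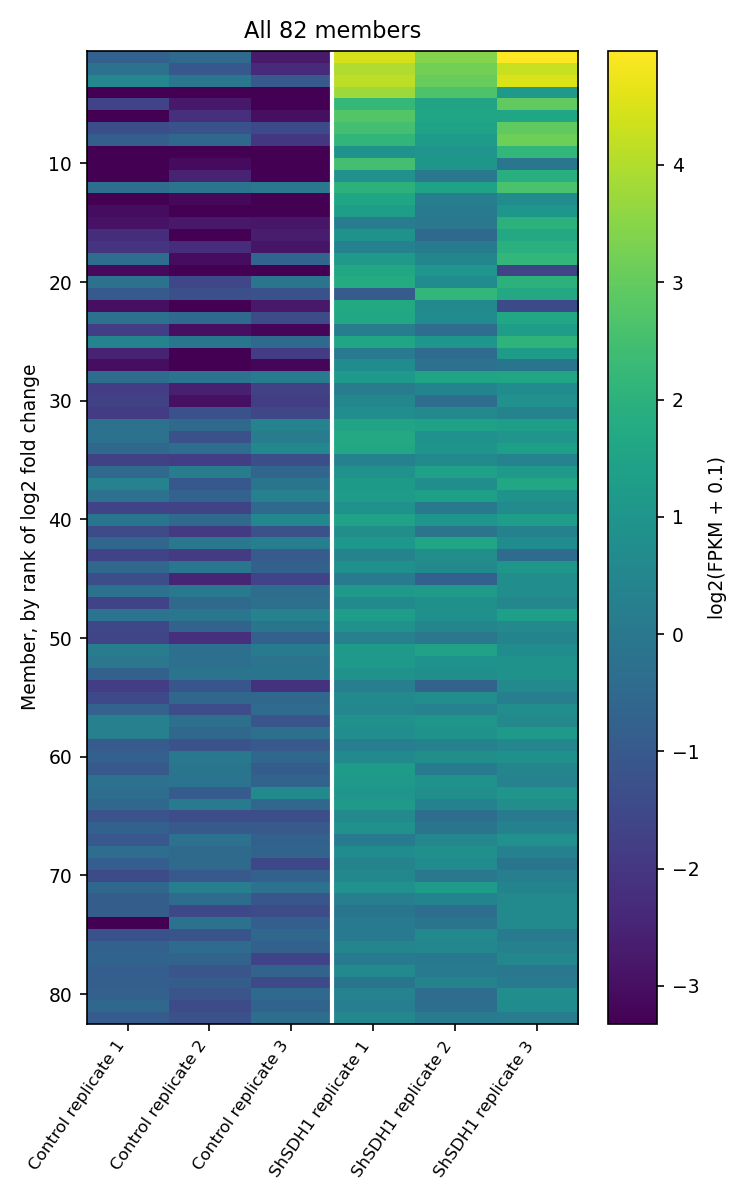
log2(FPKM + 0.1) of all 82 genes (rows, by rank of log2 fold change) in the 6 libraries (columns, Control left of the white line). The dark Control fields of the near-silent genes lie among the upper ranks, while most lower rows pass from Control means of 0.199 to 0.945 FPKM to ShSDH1 means of 1.00 to 2.99 FPKM.

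Limits of the rule cut through a continuous range of values. The genes just inside the ratio limit had offset ratios of 2.01, 2.03 and 2.06, and those just outside had 1.99, 1.98 and 1.98. Just inside the ShSDH1 limit the means were 1.000, 1.004 and 1.005 FPKM, and just outside they were 0.996, 0.991 and 0.988 FPKM. Just inside the Control limit the means were 0.945, 0.943 and 0.908 FPKM, and the nearest genes above it stood at 1.001, 1.004 and 1.029 FPKM. Of the 11992 genes with a Control mean under 1 FPKM, 468 reached a ShSDH1 mean of 1 FPKM. Of these, 101 also had an offset ratio of at least 2, and 89 of the 101 had groups that did not overlap, 7 of them in the left-out identifier stretches. Over all genes with a Control mean under 1 FPKM, 9.18% had every ShSDH1 library above every Control library.

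The same limits took 16 genes in the opposite direction, with a Control mean of at least 1 FPKM and a ShSDH1 mean under 1 FPKM. Before the other limits, 259 genes crossed 1 FPKM in this direction and 468 in the direction of the 82. An offset ratio of at least 4, taken as Control over ShSDH1, was reached by 6 of the 16, and 30 of the 82 reached it as ShSDH1 over Control. With median-ratio size factors the counts of 82 and 16 became 75 and 18, and with quantile normalization 71 and 24. The 82 became 129 without ShSDH1 replicate 2, of which 76 were among the 82. Leaving out Control replicate 1 turned the 16 into 26, leaving out ShSDH1 replicate 1 gave 25, and leaving out ShSDH1 replicate 3 gave 27. No test of the 82 against the 16 was made.

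The order of the ShSDH1 libraries was not fixed by the rule, and it differed between groups of these genes. In 38 of the 82 genes (46.3%) ShSDH1 replicate 3 had the top ShSDH1 value, replicate 1 in 27 (32.9%) and replicate 2 in 17 (20.7%). Among all 17247 tested genes the shares were 32.1% for replicate 3, 32.7% for replicate 1 and 35.1% for replicate 2. Among other genes with ShSDH1 means of 1 to 5 FPKM they were 36.2%, 38.4% and 25.4%. ShSDH1 replicate 3 was highest in 18 of the 30 genes with an offset ratio of at least 4 (60.0%) and in 20 of the 52 with a smaller ratio (38.5%). ShSDH1 replicate 2 was the lowest library in 21 of these 30 genes (70.0%), against 44.7% of tested genes. No test of these shares was made, since genes of the same libraries are not independent replicates.

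**Figure D4:**
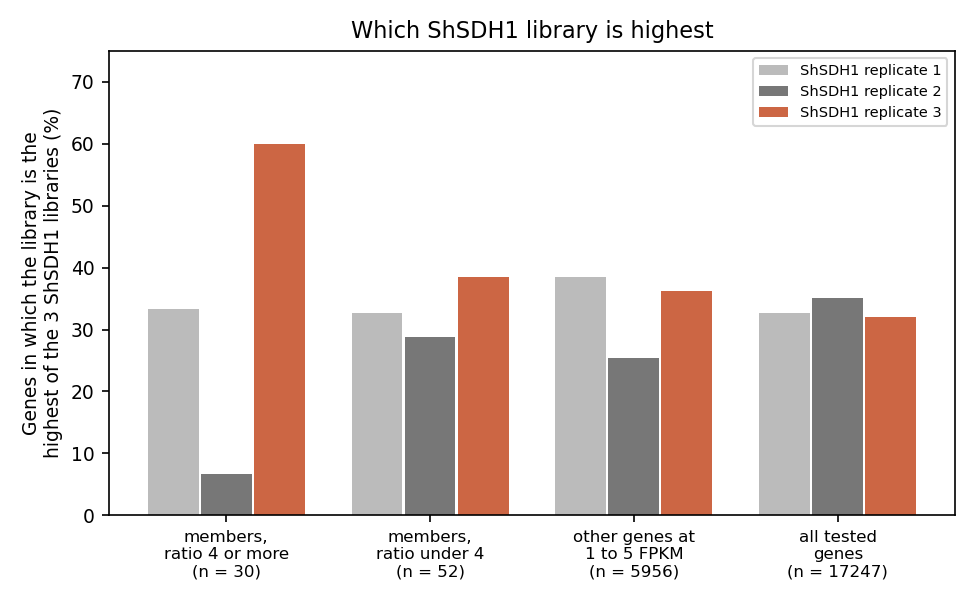
Share of genes in which each ShSDH1 library is the highest of the 3 ShSDH1 libraries, for the chosen genes with an offset ratio of 4 or more (n = 30) and under 4 (n = 52), for other genes with a ShSDH1 mean of 1 to 5 FPKM and for all tested genes. ShSDH1 replicate 3 is highest in 60.0% of the first group, against 32.1% of all tested genes.

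Divided at 3 Control fragments, the 30 genes showed different orders. Of the 22 that had more than 3 Control fragments, 17 had ShSDH1 replicate 3 highest and 16 followed the full order of replicate 3, then 1, then 2. Of the 8 genes with at most 3 Control fragments, 7 had ShSDH1 replicate 1 highest and 1 had replicate 3 highest, and replicate 3 was the lowest in 4. This division was chosen after the values had been seen, and it was less sharp at a Control mean of 0.1 FPKM. Of the 16 near-silent genes, all among the 30, 8 had ShSDH1 replicate 1 highest and 8 had replicate 3 highest. Over all 30 genes replicate 1 was highest in 10 and replicate 3 in 18. The commonest full order of the 16 was again replicate 3, then 1, then 2, in 7. ShSDH1 replicate 3 was the shallowest library, with 33654750 fragments, and ShSDH1 replicate 2 the deepest, with 41776866.

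No single Control library led over the 82 genes: replicate 1 was the highest Control library in 30 (36.6%), replicate 2 in 24 (29.3%) and replicate 3 in 28 (34.1%), with the 2 genes at 0 in all of them counted under replicate 1. In the 52 genes with an offset ratio under 4, Control replicate 3 was highest in 22 (42.3%). Over all tested genes Control replicate 3 was the highest in 49.7%. In the 87 genes that met the same ratio and overlap limits from a Control mean of 1 FPKM or more, Control replicate 3 was highest in 54 (62.1%) and ShSDH1 replicate 2 topped the ShSDH1 libraries in 45 (51.7%). The difference between these shares was not tested.

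ShSDH1 libraries also spread widely in the genes with an offset ratio of at least 4. Between the lowest and the highest ShSDH1 library the median quotient was 1.87 over the 82 genes, 2.79 over the 30 genes with an offset ratio of at least 4 and 1.52 over the 52 others. It was 1.29 in other genes with ShSDH1 means of 1 to 5 FPKM and 1.18 over all tested genes. It was 1.5 in the 386 other genes that passed from under 1 FPKM in Control to at least 1 FPKM with ShSDH1. A quotient of 3 or more was present in 14 of the 82 genes, and 13 of the 14 had an offset ratio of at least 4.

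Choosing genes on 5 libraries leaves the sixth as a reading that the choice did not use. The left-out library is set against libraries of the other group that did choose the genes, so that a higher share than over all tested genes is partly fixed by the choice, and the shares are given as a description. With ShSDH1 replicate 1 left out, 80 genes met the rule, and in 78 of them (97.5%) this library lay above all Control libraries, against 44.5% of all tested genes. For ShSDH1 replicate 3 it was 80 of 84 genes (95.2%, against 42.2%). For ShSDH1 replicate 2 it was 94 of 129 genes (72.9%, against 38.9%). Over all genes with a Control mean under 1 FPKM, the shares were 34.2% for replicate 1, 33.4% for replicate 3 and 24.8% for replicate 2. The median of the chosen genes in the left-out library was 1.64 FPKM for replicate 1, 1.51 FPKM for replicate 3 and 0.93 FPKM for replicate 2. The other ShSDH1 libraries gave medians of 1.67, 1.73 and 1.62 FPKM for the same genes. All 3 left-out ShSDH1 libraries read lower than those that chose the genes, replicate 2 by the most.

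Left-out Control libraries lay below all ShSDH1 libraries in 82 of 83 genes for replicate 1 (98.8%, against 41.7% of tested genes), in 82 of 86 for replicate 2 (95.3%, against 42.9%) and in 94 of 108 for replicate 3 (87.0%, against 31.5%). Over all genes with a Control mean under 1 FPKM, the shares were 22.3%, 24.0% and 18.9% for replicates 1, 2 and 3. Control replicate 3 read 1 FPKM or more in 33 of its 108 genes, Control replicate 1 in 10 of 83 and Control replicate 2 in 8 of 86. The 6 selections share most of their libraries and genes and are not independent of each other.

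**Figure D5:**
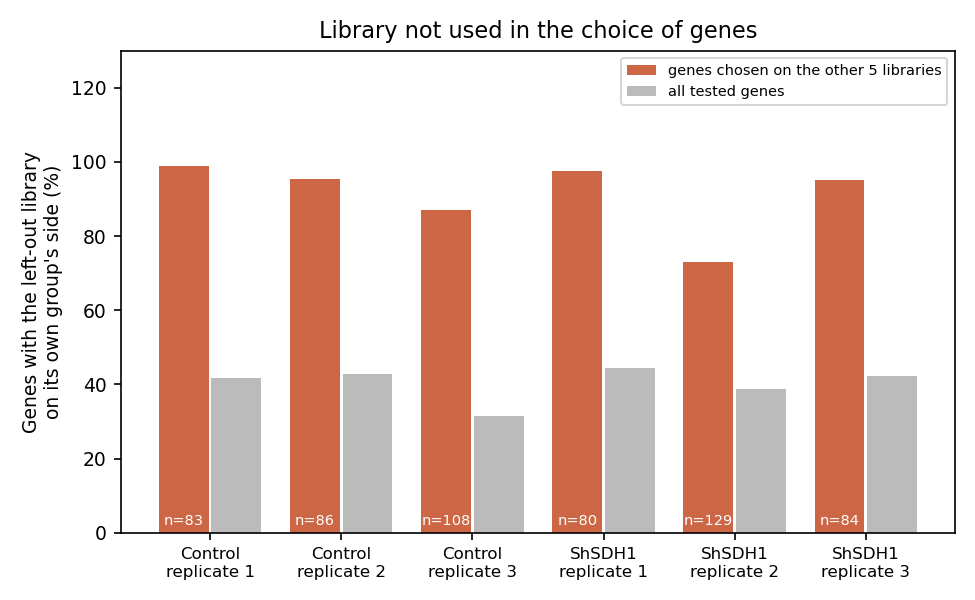
Share of genes in which a library that was not used in the choice lies on the side of its own group (a ShSDH1 library above all Control libraries, a Control library below all ShSDH1 libraries), for genes chosen on the other 5 libraries (orange, number of genes in each bar) and for all tested genes (grey). The lowest orange bar is ShSDH1 replicate 2, at 72.9%.

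The fit over all genes tested only part of the 82. In limma on log2(FPKM + 1), genes entered if 3 or more libraries held at least 1 FPKM. This admitted 48 of the 82, 32 of them through ShSDH1 libraries alone, and left 34 untested. Of the 48, 47 passed a limma adjusted p of 0.05 as higher, and over all tested genes 10.2% did so. Since the rule used this contrast and the filter admits these genes through the group where they are high, nothing is read from the 47. Adjusted p ran from 0.000913 in OsR498G1119320500.01 to 0.0548 in the gene of rank 63, which did not pass. That gene had 0.682, 0.439 and 1.44 FPKM in Control and 1.93, 1.62 and 1.90 FPKM with ShSDH1, so that Control replicate 3 came close to the ShSDH1 libraries. Leaving out Control replicate 1 turned the 47 into 23, leaving out ShSDH1 replicate 1 gave 27 and leaving out Control replicate 2 gave 29. Over all tested genes the 1759 higher calls became 422, 619 and 621 in the same order, so calls were lost throughout. The median log2 fold change was 0.77 over the 82 genes and 0.04 over all tested genes. Of all called genes 73.1% were higher as deposited, 56.8% with median-ratio size factors and 55.8% with quantile normalization.

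Gene length, which the rule did not use, was short in these genes. As read from the FPKM steps, the median was 1302 bases over the 82 genes, with a range from 420 to 5494 bases, and was 1296 bases and 1304 bases in the genes with offset ratios of at least 4 and under 4. The median was 2236 bases over all tested genes, 2083 bases over other genes with ShSDH1 means of 1 to 5 FPKM and 1666 bases over the 386 other genes that crossed 1 FPKM. The 87 raised genes with Control means of 1 FPKM or more had a median of 1339 bases, close to that of the 82. Short genes have fewer fragments at the same FPKM and so a larger counting error, and its part in the choice of genes was not tested.

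The 82 genes came from all parts of the identifier series, with the 3 left-out stretches removed by the rule. The leading pair of digits in each identifier, taken here as the chromosome number, placed genes on all 12 chromosomes, from 17 on chromosome 1 to 3 on chromosome 10. Per 1000 listed genes this was 1.65 on chromosome 3 to 4.12 on chromosome 1. Among the 82 there were 0 neighbouring pairs, and 6 genes lay within 10 listed places of another. This count is partly set by the rule, since the left-out stretches held 7 further genes that met its other limits, and the 89 genes together had 2 neighbouring pairs. At least 1 direct neighbour had passed as higher in limma beside 11 of the 82 genes (13.4%), against 12.2% of all tested genes. At least 1 direct neighbour had a Control mean of 1 FPKM or more beside 68 of the 82 (82.9%), against 84.9% of all tested genes and 77.0% of other genes under 1 FPKM in Control. Read assignment to an expressed neighbour was not tested, and whether counting used strand is not given in the sources used here.

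Among the 10 leading genes, those of rank 2, 5 and 7 had a neighbour that passed as higher, and the other 7 had none. The gene listed after OsR498G1119320500.01 went from 112 to 152 FPKM, a log2 fold change of 0.45 at a limma adjusted p of 0.0244. The gene listed after that of rank 5 went from 38.7 to 63.6 FPKM, with 0.71 and a limma adjusted p of 0.0044. On the ratio scale both neighbours changed far less than the genes beside them. Both neighbours of the gene of rank 7 had also passed as higher, at 4.86 to 6.95 FPKM and 15.4 to 22.5 FPKM.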

How the data were processed

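The authors deposited 1 table of FPKM values, 1 column per library, with replicates not pooled. The aligner, counting tool, annotation and use of strand were not given in the sources used here. In the submitters' processing notes only mouse builds are listed, which cannot belong to rice identifiers, so no build is stated. Groups and replicate numbers came from the sample titles.

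The 82 genes, and the groups and divisions described, were chosen with earlier results of these data known. Depth, gene lengths and fragment numbers were computed from the steps of low FPKM values: all 25303 genes above 0 in at least 4 libraries (100.0%) gave whole lengths and fragments within 0.02. The genes of rank 4 and 9, at 0 in every Control library, lie outside this check. For each gene the smallest whole solution was kept, so its length and fragments can be too small by a common factor. The test across genes was limma 3.58.1 in R 4.3.3 (lmFit, eBayes with trend, two-sided, Benjamini-Hochberg over 17247 genes) on log2(FPKM + 1), which understates the change of low genes. The reading of fragments and limma were both tested on simulated data. For limma, only genes with a mean log2(FPKM + 1) above 2 were changed there. Most of the 82 lie below that level, so recovery at their level was not tested. Intervals used SciPy 1.17.1 in Python 3.11.15. By the rule for named genes, only the 2 genes with the largest log2 fold change past the threshold are given by identifier. Alternatives were other pseudocounts, filters, scalings, rule limits, voom on implied fragments, a replicate block and leaving out each library.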

Additional observations from a re-analysis of the deposited data

How the results depend on the processing

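The count of 82 genes was 158 after rescaling to TPM, where the same 1-unit limit lies lower because the values are larger, and 43 of the 82 were among them. It was 133 with a limit of 0.5 FPKM, 27 with an offset of 1 FPKM, 30 with an offset ratio of at least 4, and 80 to 129 when a library was left out. The 30 genes with a ratio of at least 4 became 68 after rescaling to TPM and 25 to 47 without a library; this alternative was added after the data had been seen. The 16 genes of the opposite direction became 51 with TPM, 38 and 10 with limits of 0.5 and 2 FPKM, 4 with an offset of 1 FPKM, 6 with a ratio of at least 4, and 11 to 27 without a library. In limma, the 47 of the 82 genes that passed were 74 after rescaling to TPM (79 tested) and 3 with a filter at 5 FPKM (3 tested). The count was 21 at an adjusted p under 0.01 and 23 to 44 without a library. Higher calls over all tested genes were 1759 as deposited, 1810 of 19353 with TPM and 1664 of 11244 with the 5 FPKM filter. The rule used this contrast, so nothing is read from the counts among the 82. Over all tested genes the 2406 calls were 1489 with no filter, 592 at an adjusted p under 0.01 and 562 to 2778 without a library. ShSDH1 replicate 3 was the highest library in 34 to 38 of the 82 genes under the 3 scalings. Both named genes were chosen on this contrast, so nothing is read from their calls; limma adjusted p over the 15 alternatives ran from 0.000703 to 0.0118 for OsR498G1220846000.01 and from 0.000456 to 0.00831 for OsR498G1119320500.01.

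Deviations from group means correlated at 0.18, 0.27 and -0.02 between libraries of the same number, so pairing is not established; the replicate block gave 48 of the 82 genes and 2239 calls. Depth limits the near-silent genes most, whose Control levels rest on 0 to 26 fragments over 3 libraries.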
